A study of Mus musculus with 6 samples.

Results

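The 6 genes described here, Mbp, Sox10, S100b, Pmp22, Prx and Cnp, are genes of Schwann cells and of the myelin they make. They were chosen by symbol, and all 6 were found among the 16533 genes counted. The libraries came from the ligated inferior vena cava of mice, taken with its thrombus 24 h after ligation, a model of deep vein thrombosis. Control mice were Stingf/f, whose Sting1 gene is flanked by loxP sites. The mKO genotype, Stingf/f Lyzm-Cre+/-, adds 1 copy of a Cre recombinase driven by the Lyz2 locus in neutrophils, monocytes and macrophages. Both genotypes therefore carry the floxed gene and both had the vein ligated. Each group had 3 libraries, each made from 3 pooled thrombi, and the spread between pools is what every test here measures against. The labels give neither age nor sex, and no unligated vein was part of the comparison.

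Schwann cells are the glia of peripheral nerves. Some wrap a single large axon in a myelin sheath, built from compacted membrane, and others hold bundles of thin unmyelinated axons, such as the sympathetic fibres that run in the outer coat of a vein. SOX10 sets and maintains the identity of the whole lineage, and together with EGR2 it switches on the myelin genes in cells that myelinate. Several of the 6 genes are also read outside nerve. Mbp makes golli transcripts in blood cells from an upstream start, Pmp22 and Cnp are transcribed in many tissues, and S100b is found in adipocytes.

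Libraries held 158579864 to 180068483 counts, and each of the 6 genes had at least 117 counts in every library. Counting error weighs most on S100b and Prx, which had the fewest counts. Sting1, the targeted gene, stood at 25.1, 31.4 and 27.1 CPM (counts relative to the scaled total of the library) in control libraries 1 to 3 and at 22.7, 21.4 and 28.7 CPM in mKO libraries 1 to 3, and these ranges overlapped. A count over the whole gene and all cells of the tissue does not show a deletion in myeloid cells only. mKO library 3 stood apart from the other 5 in skeletal muscle and sympathetic markers. Its 10 skeletal muscle markers summed to 243 CPM against 4.92 to 67.8 CPM elsewhere, and its 22 markers of sympathetic neurons to 32.3 CPM against 294 to 778 CPM. Control library 3 held the most sympathetic transcript, 778 CPM, and the second most skeletal muscle transcript, 67.8 CPM. Fold changes of the 6 genes and the medians of the myelin and lineage lists are given with and without these 2 libraries. In bulk tissue, fewer cells of a type and less RNA per cell cannot be told apart.

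The levels of the 6 genes were first set side by side per kilobase of exon, averaged over the 6 libraries. Pmp22, a membrane protein of compact myelin, had 16.9 ± 4.69 CPM per kilobase (SD, n = 6), and Cnp, an enzyme of the uncompacted myelin loops, had 15.2 ± 4.20. Pmp22 was above Cnp in 4 of 6 libraries, so the order of these neighbours was not fixed. Mbp, which holds the inner faces of the myelin membrane together, followed at 7.91 ± 1.82 CPM per kilobase and was below Cnp in 6 of 6 libraries. That place depends on the length used: 8.123 kilobases over 14 transcripts for Mbp and 2.357 kilobases over 1 transcript for Cnp. By CPM alone, Mbp was the highest of the 6 genes in every library. Sox10 had 2.13 ± 1.33, S100b, a calcium-binding protein of glia, had 0.682 ± 0.308, and Prx, a scaffold that links the Schwann cell membrane to its surroundings, had 0.290 ± 0.102 CPM per kilobase. Sox10 was above S100b, and S100b above Prx, in 6 of 6 libraries, although the ranges of Sox10 (0.648 to 4.34) and S100b (0.469 to 1.29) overlapped across libraries.

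By edgeR's quasi-likelihood test, 0 of the 6 genes passed an adjusted p of 0.05 between genotypes, and 0 of 16523 genes tested did (0%). Without adjustment, 1960 genes had p under 0.05 (11.9%), and Mbp was the single one of the 6 among them. DESeq2 called 2.88% of its tested genes and 0 of the 6. The groups did not overlap for 1 of the 6 genes, Mbp, which was higher in mKO, where 8.76% of all genes were higher without overlap and 9.39% lower. Log2 fold changes, mKO over control, were above 0 for Mbp and S100b and below 0 for Sox10, Pmp22, Prx and Cnp, with a median of -0.44 against -0.030 over all genes tested. That median was -0.10 without control library 3 and -0.25 without mKO library 3.

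**Figure D1:**
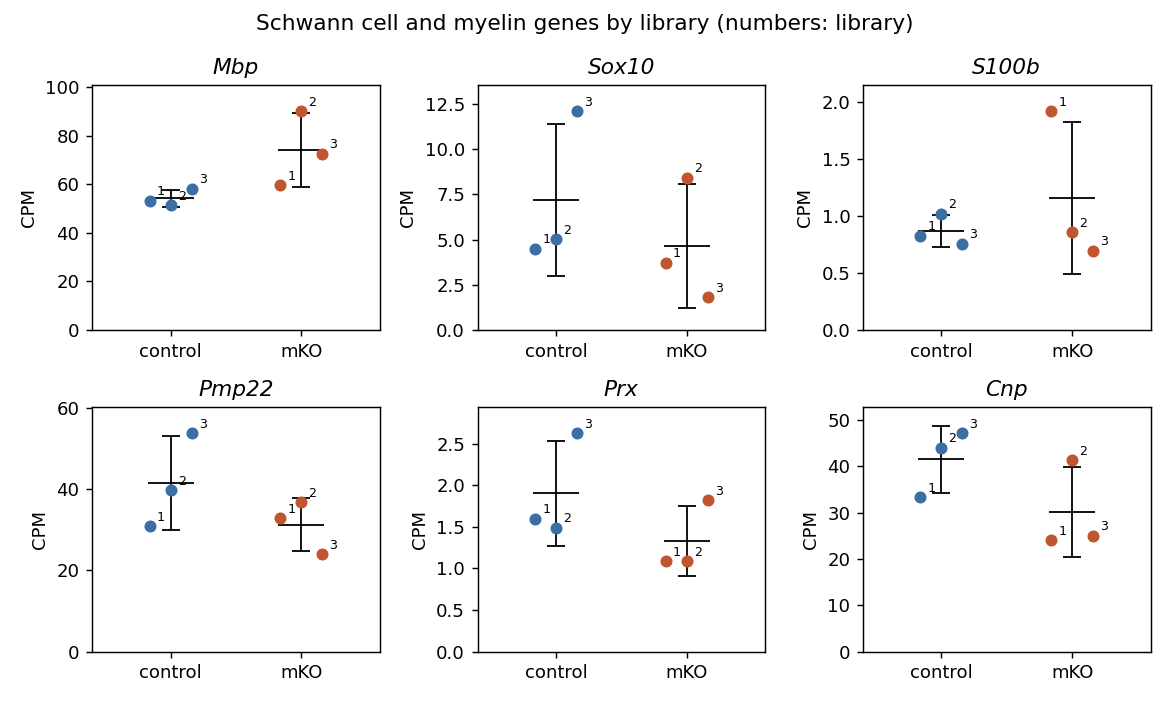
CPM of the 6 genes in each library (points, numbered by library) with the group mean and SD (bars, n = 3); every vertical axis starts at 0. Mbp is the gene whose groups do not overlap, and control library 3 is the highest library for Sox10, Pmp22, Prx and Cnp.

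Sox10, the regulator of the lineage, had 4.49, 5.01 and 12.1 CPM in control libraries 1 to 3 and 3.71, 8.42 and 1.80 CPM in mKO libraries 1 to 3. The highest value was in control library 3 and the lowest in mKO library 3, and the groups overlapped. Its highest library exceeded its lowest 6.69-fold, the widest span among the 6 genes. The log2 fold change was -0.63 (SE 0.67, edgeR quasi-likelihood adjusted p 0.699; exact two-sided permutation p 0.4, where the smallest that 3 against 3 allows is 0.1). Without control library 3 the value was -0.033, without mKO library 3 it was -0.24, and without mKO library 2 it was -1.38. Sox10 thus differed more within each genotype than between them.

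Pmp22 had 30.9, 39.7 and 53.8 CPM in control and 32.8, 36.8 and 24.0 CPM in mKO. Control library 3 was again the highest and mKO library 3 the lowest, while the other libraries of both groups lay between 30.9 and 39.7 CPM. The log2 fold change was -0.41 (SE 0.24, edgeR adjusted p 0.513; exact two-sided permutation p 0.3), and it was -0.18 without control library 3 and -0.25 without mKO library 3. Cnp had 33.3, 44.0 and 47.2 CPM in control and 24.0, 41.3 and 25.0 CPM in mKO. Here mKO libraries 1 and 3 lay below every control library, and mKO library 2 lay among them. Its log2 fold change was -0.46 (SE 0.24, edgeR adjusted p 0.479; exact two-sided permutation p 0.2). It was -0.36 without control library 3, -0.35 without mKO library 3, -0.32 without mKO library 1 and -0.76 without mKO library 2. Cnp overlaps Dnajc7 on the opposite strand, and the strand setting of the counting is not stated. Which gene the reads within the overlap were counted for is therefore not known, and the length of the overlap was not measured. Dnajc7, a heat shock cochaperone, stood at 57.5 to 69.5 CPM in control and 57.9 to 61.1 CPM in mKO.

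Prx marks, within nerve, the Schwann cells that myelinate, and is also read in some endothelium. It had 1.60, 1.49 and 2.63 CPM in control and 1.09, 1.09 and 1.82 CPM in mKO. Both groups had their highest value in library 3, and mKO library 3 exceeded control libraries 1 and 2. The log2 fold change was -0.51 (SE 0.32, edgeR adjusted p 0.540; exact two-sided permutation p 0.3). It was -0.21 without control library 3 and -0.80 without mKO library 3, so these 2 libraries moved it in opposite directions. Endothelial markers, 10 of 10 measured, had negative log2 fold changes too. They summed to 973 to 1130 CPM in control and 729 to 883 CPM in mKO, 5 of the 10 were lower without overlap (background 9.39%), and none was at 0. Their part in the values of Pmp22 and Prx was not tested.

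Mbp had 53.3, 51.4 and 58.2 CPM in control and 59.7, 90.2 and 72.7 CPM in mKO. Every mKO library lay above every control library, though mKO library 1 exceeded control library 3 only slightly, and the groups stayed apart when libraries were scaled by median-of-ratios factors or by their totals. Its log2 fold change of 0.45 (SE 0.16) had an edgeR adjusted p of 0.364, a DESeq2 adjusted p of 0.166 and, in the exact two-sided permutation test, p = 0.1, the smallest possible. Without mKO library 2, the highest, it was 0.29; without control library 3 it was 0.50, and without mKO library 3 it was 0.47. Where Sox10 and Pmp22 were lowest, in mKO library 3, Mbp had its second highest value, and its highest was in mKO library 2. All 10 leukocyte markers were measured, none was at 0 and none passed the test. Their summed level, mostly that of the neutrophil alarmins S100a8 and S100a9, was 8750 to 13500 CPM in control and 12800 to 17000 CPM in mKO, so the groups overlapped. As for Mbp, the lowest library was control library 2 and the highest mKO library 2. These extremes were common: 25.0% of all genes were lowest in control library 2, and 21.3% were highest in mKO library 2. Of these 10 markers 7 had a positive log2 fold change and 3 a negative one. Groups did not overlap for 3 higher ones (background 8.76%) and 1 lower one (background 9.39%). The higher ones included Ptprc, the pan-leukocyte CD45, at 210 to 248 CPM in control and 269 to 377 CPM in mKO. The lower one was Nkg7 of cytotoxic lymphocytes, at 2.08 to 4.62 CPM in control and 1.17 to 1.72 CPM in mKO, a log2 fold change of -1.20 (SE 0.32, edgeR adjusted p 0.274). Of 10 erythroid markers 9 were measured, none at 0, all 9 with a positive log2 fold change and a median of 0.54, and 5 were higher without overlap (background 8.76%). Their sum, almost all globin, was 201000 to 259000 CPM in control and 239000 to 285000 CPM in mKO, overlapping between groups, again with control library 2 lowest and mKO library 2 highest. The part of leukocyte and erythroid RNA in the Mbp count was not tested, and a count per gene sums the classic and golli transcripts.

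S100b was read at 0.827, 1.02 and 0.755 CPM in control and 1.92, 0.857 and 0.697 CPM in mKO. A single library, mKO library 1, was high, and the other 5 lay between 0.697 and 1.02 CPM. The log2 fold change of 0.42 (SE 0.40, edgeR adjusted p 0.667; exact two-sided permutation p 0.8) turned to -0.16 without mKO library 1, and was 0.33 without control library 3 and 0.68 without mKO library 3. Adipocyte markers, 10 of 10 measured and none at 0, summed to 724 to 869 CPM in control and 420 to 609 CPM in mKO, with 609 CPM in mKO library 1. S100b overlaps Dip2a on the opposite strand, and Dip2a had 9.08 to 10.4 CPM in control and 7.92 to 11.7 CPM in mKO, about as much in mKO library 1 (10.2 CPM) as elsewhere.

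**Figure D2:**
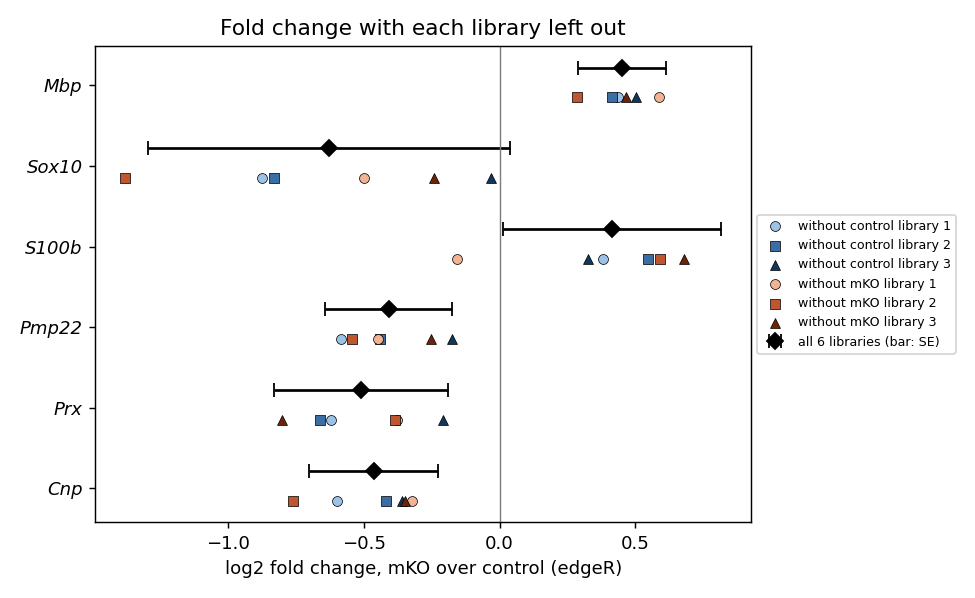
Log2 fold change of mKO over control by edgeR for each of the 6 genes, with all 6 libraries (diamond, bar: SE) and with 1 library left out (small symbols). Sox10 runs from -1.38 (mKO library 2 left out) to -0.033 (control library 3 left out), S100b crosses 0 without mKO library 1, and Mbp stays above 0.

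For 4 of the 6 genes, entries of the RefSeq promoter table (mouse build GRCm38.p6) were searched. The 250 bases before 1 start of each are shown because Cnp, Pmp22 and Prx shared their highest library while S100b did not. No entry for Mbp or Sox10 was used, which does not show that the table lacks them. The files were made with GRCm39, so these positions are those of the table only. Capitals mark the SOX core letters ACAAAG or ACAATG, on either strand; the EGR letters GCGNGGGCG were searched as well. For Pmp22, which has 4 starts in the table, the most upstream start is shown, and a count per gene sums all of them.
Cnp, chr11:100574689-100574938, plus strand: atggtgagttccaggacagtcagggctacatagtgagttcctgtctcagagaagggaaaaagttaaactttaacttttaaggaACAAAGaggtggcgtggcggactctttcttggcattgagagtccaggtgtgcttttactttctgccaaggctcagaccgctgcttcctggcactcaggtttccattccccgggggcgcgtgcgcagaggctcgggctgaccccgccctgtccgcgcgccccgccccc
Pmp22, chr11:63128732-63128981, plus strand: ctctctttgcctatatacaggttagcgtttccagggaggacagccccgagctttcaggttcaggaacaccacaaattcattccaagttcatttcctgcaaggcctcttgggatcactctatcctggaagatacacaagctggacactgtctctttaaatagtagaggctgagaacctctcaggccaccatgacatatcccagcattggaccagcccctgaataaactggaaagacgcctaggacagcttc
Prx, chr7:27499074-27499323, plus strand: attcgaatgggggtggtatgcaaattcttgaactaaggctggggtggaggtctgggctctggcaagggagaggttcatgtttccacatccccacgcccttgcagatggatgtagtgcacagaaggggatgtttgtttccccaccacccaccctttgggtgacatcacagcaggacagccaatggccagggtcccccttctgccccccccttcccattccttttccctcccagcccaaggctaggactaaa
S100b, chr10:76253586-76253835, plus strand: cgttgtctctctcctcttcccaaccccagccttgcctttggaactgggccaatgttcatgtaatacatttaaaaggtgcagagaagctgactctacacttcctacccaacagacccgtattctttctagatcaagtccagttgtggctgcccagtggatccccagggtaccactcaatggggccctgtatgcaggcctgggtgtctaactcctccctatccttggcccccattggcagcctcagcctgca
The window of Cnp holds ACAAAG once, its first base 167 bases before the start. The SOX letters are absent from the other 3 windows, and the EGR letters from all 4. Over all 32851 promoter entries, 16.5% hold ACAAAG, 10.7% hold ACAATG, 25.2% hold either and 4.70% hold the EGR letters, so a single match among 4 windows is near that background and says nothing of binding.

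Other genes of the myelin sheath were taken from a list of 20, of which 11 were measured: 0 passed the test, 10 had a log2 fold change below 0 and 1 above, with a median of -0.58. Non-overlapping groups were found for 1 of them (lower; background 9.39%), Dag1, which encodes dystroglycan, at -0.35 (SE 0.13, edgeR adjusted p 0.375). Control library 3 was the highest library for 8 of these 11 genes and for 4 of the 6, against 15.3% of all genes. Without that library the median over the 11 was -0.032, with 6 genes below 0 and 5 above, and without mKO library 3 it was -0.38.

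Genes of Schwann cell identity and signalling, 26 of 28 measured, had a median of -0.33, with 18 below 0 and 8 above. None passed the test. Groups did not overlap for 3 lower genes and 1 higher one (background 9.39% and 8.76%). The lower ones were Lama2, a laminin chain found in the Schwann cell basement membrane, at -0.97 (SE 0.25, edgeR adjusted p 0.255), the sodium channel gene Scn7a at -0.88 (SE 0.27) and the neuregulin receptor subunit Erbb2 at -0.38 (SE 0.16). Scn7a and Erbb2 were highest in control library 3, as Sox10 was, and Lama2 was highest in control library 2. Unlike Sox10, none of these 3 was lowest in mKO library 3. Scn7a was lowest in mKO library 2, and Lama2 and Erbb2 were lowest in mKO library 1. The part of other cells in these values was not tested. The higher one was Zeb2, a transcription factor that leukocytes also use, at 0.17 (SE 0.11). Erbb3, the receptor through which axonal neuregulin acts on Schwann cells, had 1.30, 1.47 and 2.49 CPM in control and 0.977, 2.29 and 1.00 CPM in mKO. Its ligand gene Nrg1 had a log2 fold change of 0.50 (SE 0.29, edgeR adjusted p 0.514), opposite in sign to the -0.30 (SE 0.41) of Erbb3. Among the factors of myelination, Pou3f1 had -1.39 (SE 0.54, edgeR adjusted p 0.387), and -0.66 without control library 3, where it was highest at 1.39 CPM. Egr2 had 0.32 (SE 0.15), and it is an immediate early gene of many cells besides. The median over the 26 genes was 0.044 without control library 3 and -0.032 without mKO library 3.

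The Schwann cell genes were not all low in mKO library 3. The genes named for this were chosen after their values were seen. Sox10 in that library was 0.360 of the median of the other 5 libraries. The ratio was 0.131 for Ngfr, the low-affinity neurotrophin receptor of non-myelinating and injured Schwann cells, 0.132 for Gfra3, 0.249 for the adhesion molecule Ncam1, 0.307 for Cdh19 and 0.373 for Gfap, the glial filament of non-myelinating cells. By contrast it was 1.22 for Prx, 1.25 for Mag, the myelin-associated glycoprotein, and 2.24 for Drp2, the partner of periaxin. Ngfr had 12.8, 20.5 and 38.3 CPM in control and 18.3, 30.7 and 2.68 CPM in mKO, whereas Drp2 had 0.566, 0.357 and 2.23 CPM in control and 0.555, 1.05 and 1.27 CPM in mKO. Sox10, Ngfr, Gfra3, Ncam1, Cdh19 and Gfap were each lowest in mKO library 3, and Prx, Mag and Drp2 were not. The division was not complete, since Nfasc of the axonal node (0.209), Cadm4 (0.603), Gldn (0.614) and Mal (0.850) from the myelin list were lowest there as well. So was Pmp22, at 0.652, and Cnp stood at 0.606. Of the 26 lineage genes 7 were above 1 (26.9%), fewer than the 48.6% of all genes above 1. The 22 sympathetic neuron genes had a median ratio of 0.0175 in the same library. The part of neurons in the values of Ngfr, Gfra3 and Ncam1 was not tested.

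**Figure D3:**
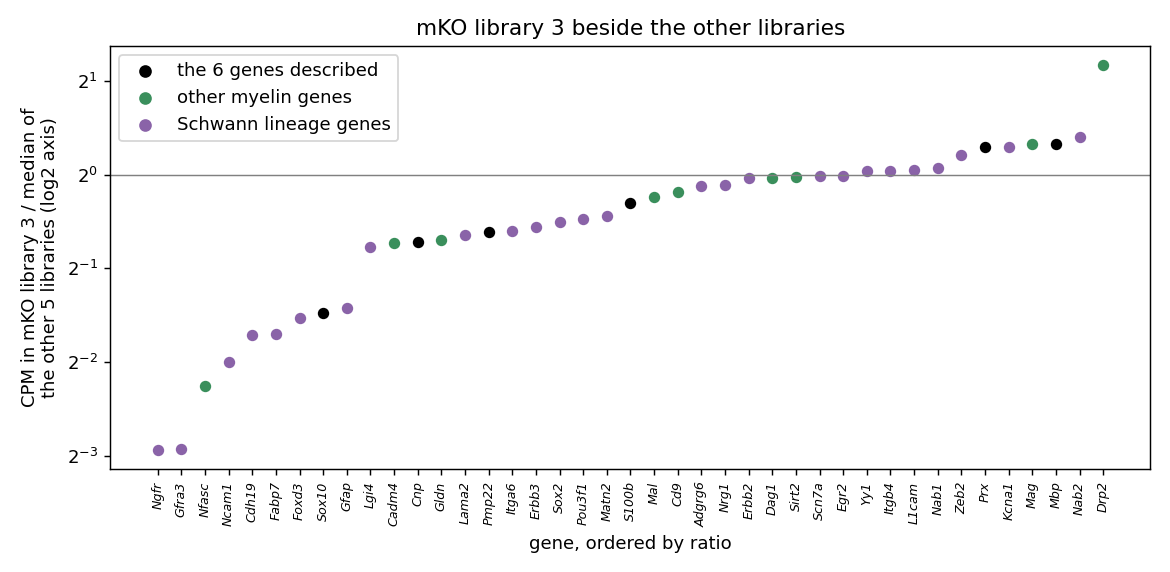
CPM in mKO library 3 divided by the median of the other 5 libraries (log2 axis) for the 6 genes, 9 of the 11 other myelin genes and 26 Schwann cell lineage genes, ordered by the ratio. Ngfr and Gfra3 lie lowest, at 0.131 and 0.132, Sox10 at 0.360, and Prx, Mag and Drp2 lie above 1.

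Over whole lists, the ratio of mKO library 3 to the other libraries had a median of 0.732 for the 6 genes, 0.877 for the other myelin genes and 0.728 for the lineage genes, against 0.994 over all genes. It was below 0.5 for 1 of 6, 1 of 11 and 7 of 26 genes, where 4.72% of all genes were that low. mKO library 3 was the lowest library for 3 of the 6 genes, 4 of the 11 and 9 of the 26 (background 17.3%). For the 22 sympathetic neuron genes the median ratio was 0.0175, and all 22 were lowest in mKO library 3 and highest in control library 3. Th, the first enzyme of noradrenaline synthesis, had 16.7, 31.3 and 52.7 CPM in control and 22.6, 34.8 and 0.152 CPM in mKO. The ratio for Th was 0.00486, far below the 0.360 of Sox10. All 10 skeletal muscle markers were measured, and their sum, 243 CPM in mKO library 3, was 33.3 CPM in mKO library 1, 67.8 CPM in control library 3 and 4.92 to 6.22 CPM in the others, where Myh4 or Myh1 could be at 0. Which nerves or ganglia each pool held was not recorded in the labels, and the part of dissected tissue in these values was not tested.

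**Figure D4:**
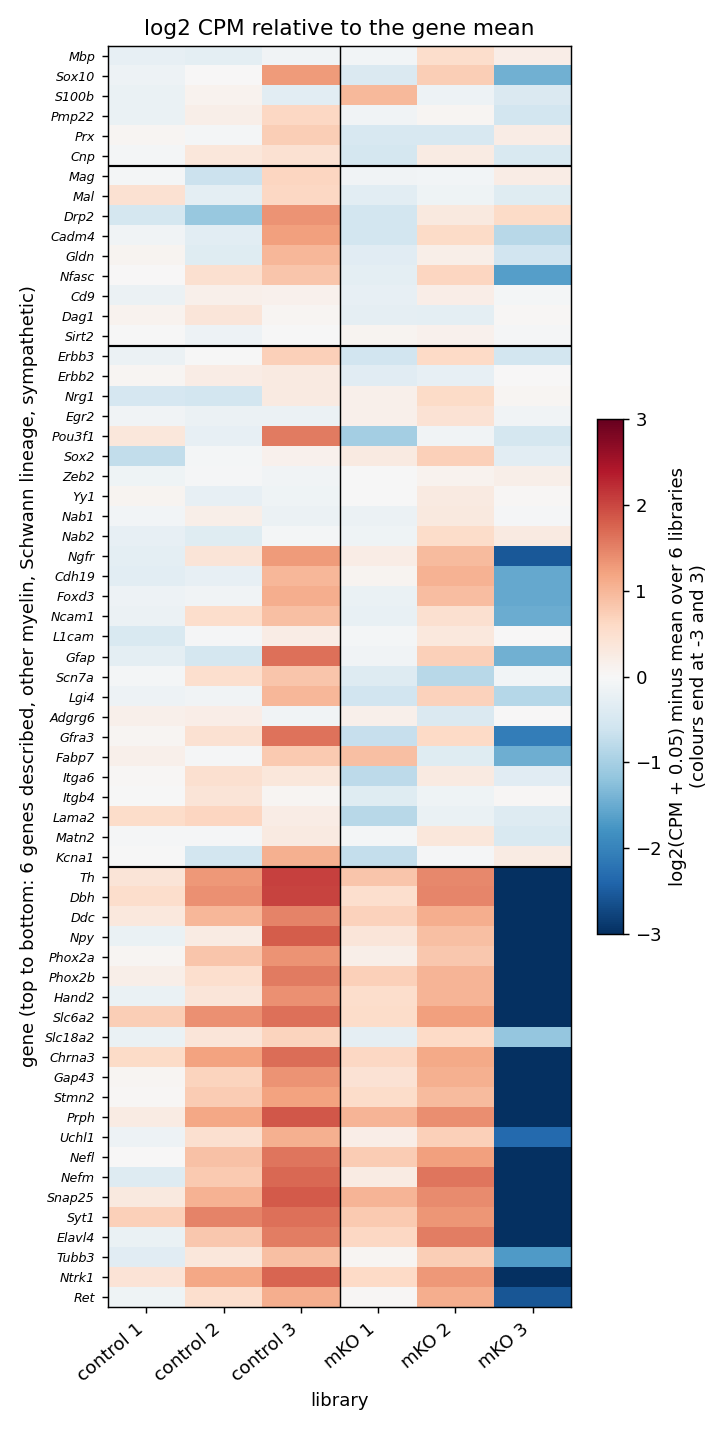
Log2(CPM + 0.05) of each gene minus its mean over the 6 libraries (columns), for the 6 genes described, 9 of the 11 other myelin genes, 26 Schwann cell lineage genes and 22 sympathetic neuron genes, top to bottom. Red is above and blue below the gene's mean; control library 3 is red for most nerve genes, and mKO library 3 is dark blue for the sympathetic genes, lighter for Sox10 and near white for Prx.

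Other cells that use these genes were checked by their markers. Of 10 oligodendrocyte markers 2 were measured, Aspa and Myrf, at 0.697 to 1.49 and 0.859 to 2.43 CPM, and both are also made outside the nervous system. Of 10 melanocyte markers, cells that use SOX10 too, 4 were measured. Pmel, a protein of the pigment granule, lay at 0.359 to 0.510 CPM over the 6 libraries. Ednrb, an endothelin receptor, was highest in control library 3 and lowest in mKO library 3, as Sox10 was, at 16.6, 15.2 and 19.8 CPM in control and 16.9, 11.1 and 10.4 CPM in mKO. Mitf was higher in mKO without overlap, at 0.54 (SE 0.14), and Kit lower, at -0.38 (SE 0.14). These genes are made by other cells as well, and the part of melanocytes in the Sox10 values was not tested. Both lists had 0 members past the threshold. Fibroblast markers, 10 of 10 measured and none at 0, summed to 690 to 1320 CPM in control and 597 to 1030 CPM in mKO. Their lowest sums were in control library 3 and mKO library 2, the 2 libraries where Sox10 was highest, and the part of this in the Sox10 values was not tested.

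Finally, the genes whose profile across the 6 libraries was most like each of the 6 were sought among 2778 genes with a mean of at least 1 CPM and a range of at least 1 on the log2 scale. Mbp and Cnp, with ranges of 0.81 and 0.98, fell short of that range themselves, so genes that vary as little as they do were not searched. Likeness was the root mean square difference of centred log2 CPM, where smaller is more alike. For Sox10 these were Gdnf, a neurotrophic factor (0.141), the transcription factor Arnt2 (0.149) and Gm2115 (0.153). Gdnf had 6.76, 6.20 and 14.1 CPM in control and 5.16, 9.54 and 2.24 CPM in mKO, which follows the order of Sox10 except that control libraries 1 and 2 change places. Cnp was nearest to Ston2 (0.0439), Pttg1ip (0.0724) and Mpig6b (0.0728), an inhibitory receptor of platelets. For Mbp they were Rab11fip4 (0.0905), Nfkbid (0.105), a nuclear regulator of NF-kB, and the histone demethylase Kdm6b (0.107). Pmp22 was nearest to Gm26510 (0.0508), Tomm6 (0.0712) and Arhgap22 (0.0756), and Prx to Gm12258 (0.183), Derpc (0.186) and Agbl5 (0.191). S100b was nearest to Nxpe5 (0.148), Pcdhgb6 (0.161) and Ptgr1 (0.185). The 6 genes had no nearest gene in common, and a likeness over 6 libraries is a description only.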

How the data were processed

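Poly(A) RNA from 3 control and 3 mKO pools was sequenced, as the labels' protocols state. Each deposited table holds whole-number read counts by gene for 1 library. The submitters' processing notes list featureCounts 2.0.1, HISAT2 2.1.0, Trim Galore 0.4.0 and FastQC 0.11.8 with build GRCm39, and give no roles; which annotation and strand setting were used, and how shared reads were treated, remains not given in the sources used here. Main tests used edgeR 4.0.16 under R 4.3.3 (quasi-likelihood F-test, TMM scaling, default expression filter, robust dispersion), adjusted by Benjamini-Hochberg over 16523 genes at 0.05; SE is that implied by the F-test, and the fit was tested on simulated data. CPM uses TMM-scaled library sizes, log2 CPM a prior count of 2. Exon lengths are unions over GENCODE M21 transcripts, an earlier build. DESeq2 1.42.0 and limma 3.58.1 voom were alternatives. The 6 genes and all lists were chosen with earlier results of these data known. Named are the 6 genes, Sting1, genes of the myelin, lineage and sympathetic lists, leading markers of other lists and the 3 genes nearest in profile to each of the 6; Ptprc, Nkg7, Ednrb, Mitf, Kit, S100a8, S100a9, Pmel, Myh4, Myh1, Aspa and Myrf were named from marker lists, Nkg7, Ednrb, Mitf, Kit, Myh4, Myh1, Aspa, Myrf, S100a8 and S100a9 after their values were seen. Dnajc7 and Dip2a were named because they overlap a gene described. Mbp overlaps the pseudogene Rpl21-ps8 on the opposite strand, at 2.31 to 2.98 CPM over the 6 libraries. Prx overlaps Gm15541 on the opposite strand, which was not among the genes counted. Within groups, no 2 libraries agreed within sampling noise. Some genes of the lists count in the totals and medians but are not reported here.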

Additional observations from a re-analysis of the deposited data

How the results depend on the processing

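Over 13 alternatives for each of the 6 genes (median-of-ratios factors, library totals, no expression filter, DESeq2, limma voom, a replicate block, haemoglobin genes left out, and each library left out), 77 of 78 values kept their direction and stayed above the 0.05 threshold, with adjusted p from 0.166 to 0.990. The exception was S100b without mKO library 1, at -0.16. With 1 library left out, log2 fold changes ran from 0.29 to 0.59 for Mbp, -1.38 to -0.033 for Sox10, -0.16 to 0.68 for S100b, -0.58 to -0.18 for Pmp22, -0.80 to -0.21 for Prx and -0.76 to -0.32 for Cnp. Genes called over the whole table numbered 0 by edgeR and limma voom and 466 by DESeq2, and 0 to 7 with 1 library left out; genes without overlap numbered 3000, and 3700 to 6002 with 1 library left out, since 2 against 3 libraries separate more easily. Pou3f1 and the medians of the lists with each library left out were added after seeing the data. Pou3f1 ran from -1.73 to -0.66. The medians ran from -0.59 to -0.10 for the 6 genes, -0.68 to -0.032 for the other myelin genes, -0.44 to 0.044 for the lineage genes and -1.28 to -0.046 for the sympathetic genes, with the value nearest 0 or above it coming without control library 3, except for the sympathetic genes, where it came without mKO library 3. The labels do not say whether equal replicate numbers share a batch. Same-numbered libraries had deviations from their group means that correlated at -0.14, -0.15 and -0.27. Deviations within groups of 3 libraries constrain one another, so these values cannot decide whether the libraries are paired. With the replicate block 0 genes were called, and the values were 0.43 for Mbp, -0.70 for Sox10, 0.28 for S100b, -0.39 for Pmp22, -0.51 for Prx and -0.49 for Cnp. S100b and Prx, at 117 to 332 and 167 to 407 counts, are the least deeply counted of the 6.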
